A study of Drosophila melanogaster with 3 samples.

Results

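The genes described here encode subunits of Mediator and of TFIID, the protein assemblies with which RNA polymerase II is brought to promoters. They were chosen by symbol from 13968 protein-coding genes of Drosophila melanogaster, as every gene whose symbol begins with MED or Taf followed by a digit, and 40 genes met this rule, 25 of Mediator and 15 of TFIID. Chromatin immunoprecipitation with an antibody against GFP was used to map Pipsqueak (psq) in whole third-instar larvae at the wandering stage, pooled from both sexes. The transgenic line stably expresses Pipsqueak joined to eGFP at its C terminus. The 3 samples were biological replicates of this 1 line, with no second condition, so every comparison is between genes. The promoter that drives the fusion, the number of animals in each sample and whether the insertion adds copies of psq sequence are not stated in the labels. All cell types of the larva are mixed in each sample. The deposited data are a list of 9459 reproducible entries (the optimal list), a list from the pooled replicates and 1 list from each replicate. Read counts are not in them, so sequencing depth is unknown and no counting interval can be given. A gene is called bound when the summit of an optimal entry, its point of highest signal, lies in the span of the gene or within 1 kb of it.

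Mediator is a large complex that carries signals from DNA-bound activators to RNA polymerase II. Its head and middle modules contact the polymerase, its tail module receives activators, MED14 forms the backbone that joins them, and a separable kinase module regulates the whole. TFIID consists of the TATA-binding protein and TBP-associated factors (TAFs), and it recognises core promoter DNA and starts the assembly of the initiation complex. Pipsqueak is a BTB-domain protein that binds DNA rich in GAGA repeats. Most genes of both complexes are commonly counted as housekeeping genes. Taf12L, also named rye, is an exception among them, as a testis-specific counterpart of Taf12.

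The DNA under the summits of these genes is shown first for the strongest summit of each complex (MED7 and Taf4), for the next strongest Mediator gene, MED25, for the A- and T-rich windows of MED17 and Taf11, and for one pair of genes with no summit. The MED7 stretch and one MED25 stretch carry the sequence TATCGATA. Each stretch is taken from release 6 of the genome (dm6, NCBI RefSeq), runs 5′ to 3′ on the strand of the gene named, covers the summit and the 50 bp to each side, and was shortened where it met an exon of a protein-coding gene. Capitals mark TATCGATA, the DNA replication-related element bound by the factor DREF, and no other motif searched is present in these letters. The stretches are the MED7 summit ranked 166 (chr3R:10761184-10761284, minus strand), the MED25 summits ranked 246 (chr3R:20008513-20008582, plus strand) and 6774 (chr3R:20008890-20008946, plus strand), the MED17 summit ranked 946 (chr3R:18188901-18189001, plus strand), the Taf4 summit ranked 423 (chr3L:16113640-16113740, plus strand), the Taf11 summit ranked 4805 (chr2L:9763264-9763364, minus strand), and the whole gap between the neighbouring genes Taf10b and Taf10 (chr2L:2767846-2767889, plus strand), where the optimal list has no entry.
MED7: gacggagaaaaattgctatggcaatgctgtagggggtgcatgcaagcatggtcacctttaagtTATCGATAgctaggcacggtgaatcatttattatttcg
MED25, rank 246: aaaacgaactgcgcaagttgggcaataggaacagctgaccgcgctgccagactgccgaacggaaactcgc
MED25, rank 6774: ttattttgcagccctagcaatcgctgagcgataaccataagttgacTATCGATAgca
MED17: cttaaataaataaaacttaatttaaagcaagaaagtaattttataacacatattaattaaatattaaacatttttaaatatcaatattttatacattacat
Taf4: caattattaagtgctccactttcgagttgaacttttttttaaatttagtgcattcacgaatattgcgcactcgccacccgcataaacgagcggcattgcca
Taf11: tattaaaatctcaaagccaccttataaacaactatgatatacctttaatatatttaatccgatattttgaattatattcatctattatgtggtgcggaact
Taf10b to Taf10: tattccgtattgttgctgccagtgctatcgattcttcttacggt
The stretches differ widely in base composition. The window reaching 50 bp to each side of the MED17 summit held 11.9% G and C, with long runs of A and T, whereas the window of the strongest MED25 summit held 52.5%. Over all 27 summits of these genes the mean was 34.3% G and C, against 37.9% over all optimal summits.

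Pipsqueak was mapped to 18 of the 40 genes (45.0%), 12 of the 25 Mediator genes (48.0%) and 6 of the 15 TFIID genes (40.0%). Of all protein-coding genes, 37.4% were bound by the same rule. The genes of these complexes are short, with a median span of 1318 bp against 2164 bp over all protein-coding genes, and a longer gene has more room for a summit. Among the 200 genes nearest in span to each member, on average 32.3% were bound for Mediator and 33.4% for TFIID. For single members this share ran between 17.5% and 55.5% for Mediator and between 8.50% and 61.0% for TFIID, following the span. Mediator thus stood above genes of its own length, and TFIID by about 1 gene of its 15. Counted inside the gene span alone, with no flank, 3 of the 40 members were bound (7.5%), below the 17.0% of all protein-coding genes. Most member summits lie upstream of an own start and the members are short. The part of either in this difference was not tested, and genes of like length were not counted this way. Genes of like length that also share the members' arrangement of neighbours, described further on, were bound in 46.1% for Mediator and 47.3% for TFIID. Bound and unbound members had nearly the same median span, 1318 and 1350 bp. No test was made of these differences, since the members were chosen with results of these data known and the lists offer no replicate condition.

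For summits close to the gene's own start site, both complexes had the same share, above that of genes of like length. Genes of like length and arrangement, given further on, came close to it. A summit lay at most 500 bp from an annotated start of the gene in 16 of the 40 genes, which are 10 of 25 Mediator genes (40.0%) and 6 of 15 TFIID genes (40.0%). Over all protein-coding genes 27.4% had one, and among genes of like length the share was 23.6% for Mediator and 24.6% for TFIID. The 2 bound members without such a summit at the own start were MED9 and MED15, both Mediator genes.

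The share of bound members was also counted in each replicate, in its 9459 strongest entries (top list). Mediator had 14, 12 and 13 bound genes in replicates 1, 2 and 3, a mean of 52.0% ± 4.0 (SD, n = 3). TFIID had 6, 5 and 5, a mean of 35.6% ± 3.85 (SD, n = 3). Over all protein-coding genes the shares were 39.6%, 35.2% and 36.8%. Mediator exceeded all genes by 14.8 ± 1.87 percentage points and TFIID differed from them by −1.64 ± 1.97 percentage points (SD, n = 3 each). The difference of Mediator was larger than its spread over replicates and that of TFIID was not, and the replicates share the same genes, so this spread says nothing of other genes.

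**Figure D1:**
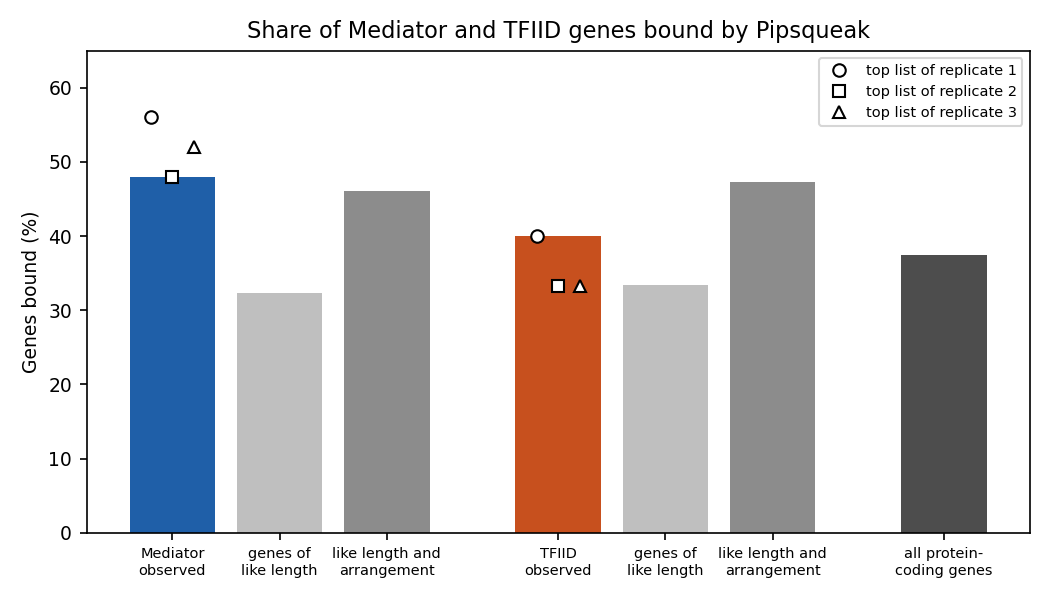
Percent of genes with an optimal summit in the span or within 1 kb, for Mediator and for TFIID. Beside them are genes of like length, genes of like length and arrangement, and all protein-coding genes. Points give the percent bound in the top list of each replicate. Mediator genes were bound in 48.0% and TFIID genes in 40.0%, beside the genes of like length at 32.3% and 33.4% and the genes of like length and arrangement at 46.1% and 47.3%.

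The bound Mediator genes came from every module except the backbone. They were 4 of 10 head genes, 4 of 8 middle genes and 4 of 6 tail genes, and MED14, the backbone, was not bound. Of all protein-coding genes 37.4% were bound. Each module has few genes, and the differences between modules were not tested. The signal is the authors' own value for an entry, on a scale they do not state, and the rank counts down the 9459 optimal entries by that signal. Distances are to the nearest annotated start of the gene, negative when upstream.

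MED7, a middle-module subunit, had the strongest summit of all 40 genes. It lay on 3R at 10761234, 202 bp upstream of the MED7 start and 76 bp from the start of Cap-H2, a condensin II subunit gene read in the opposite direction. Its signal was 2570 (rank 166), and the overlapping entries ranked 124, 209 and 179 in the lists of replicates 1, 2 and 3. A weaker summit with a signal of 1036 (rank 1076) fell 405 bp upstream of MED7, inside the 5′ UTR of Cap-H2. The other bound middle-module genes had weaker summits. MED31 had a signal of 487 (rank 3314) at 4641750 on 3R, 213 bp upstream of its start and within an intron of CG9775. MED4 had a signal of 401 (rank 4232) at 7250659 on 3L, 132 bp upstream. It was the 1 bound member with no oppositely oriented neighbour within 1 kb. A second MED4 summit, with a signal of 201 (rank 8957), lay past the far end of the gene and 71 bp from the start of Cdc27, a subunit gene of the anaphase-promoting complex.

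Among the tail genes, MED25, which encodes a subunit that activators bind in other animals, had 3 summits between its own start and that of Hs6st, a heparan sulfate sulfotransferase gene. They lay on 3R at 20008532, 20008738 and 20008940, which is 415, 209 and 7 bp upstream of MED25, with signals of 2212 (rank 246), 1071 (rank 1012) and 265 (rank 6774). The signal was thus highest at the Hs6st end, 20 bp from the Hs6st start. The strongest of these summits ranked 394, 318 and 160 in replicates 1, 2 and 3. MED27 had a signal of 964 (rank 1218) at 5655007 on 3R, 132 bp upstream of its start and 146 bp from the start of elm. MED16 and MED15 were weaker, with signals of 364 (rank 4731) at 78 bp upstream and 353 (rank 4900) at 606 bp upstream. The MED15 summit was nearer to the start of CG4297, at 207 bp.

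MED30 and MED17 were the head genes with the strongest summits. MED30, a subunit found in animals but not in budding yeast, had a signal of 1121 (rank 917) at 654274 on 3L, 185 bp upstream and 89 bp from the start of Rev1, a translesion DNA polymerase gene. MED17, a scaffold of the head, had a signal of 1107 (rank 946) at 18188951 on 3R, 121 bp upstream. These summits ranked 462, 1327 and 1263 for MED30 and 452, 1709 and 1024 for MED17 in replicates 1, 2 and 3, so both were higher in replicate 1 than in the other replicates. MED6 had 2 summits, with signals of 366 and 218, and the stronger lay in its 5′ UTR, 12 bp upstream of one of its 5 annotated starts and 7 bp from the start of Naa80, an actin acetyltransferase gene.

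The weakest bound Mediator genes were MED9 and MED8. The MED9 summit, with a signal of 314 (rank 5619), fell 1095 bp downstream of its start in a 3′ UTR shared with the overlapping gene CG42518. The MED8 summit had a signal of 225 (rank 8016), lay 444 bp upstream of MED8 and 20 bp from the start of CG8929, and was in the top lists of 2 of the 3 replicates.

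Taf4, a histone-fold subunit that is part of the core of TFIID, had the strongest TFIID summit. It lay on 3L at 16113690 in an intron of Taf4, 100 bp upstream of one of its 3 annotated starts and 1064 bp from the start of its neighbour Zn72D, with a signal of 1672 (rank 423). The overlapping entries ranked 367, 566 and 420 in replicates 1, 2 and 3. A second Taf4 summit had a signal of 333 (rank 5237) and lay in the 5′ UTR, 113 bp downstream of a start. Taf5, a WD40 subunit, followed with a signal of 1034 (rank 1081) at 10879812 on 2R, 139 bp upstream of its start and 162 bp from that of Pex6, a peroxisome biogenesis gene.

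Taf2, which touches promoter DNA around the initiator, had summits with signals of 659 (rank 2224) and 530 (rank 2982), 133 and 361 bp upstream. The stronger lay inside the 5′ UTR of CalpB, a calpain gene. Taf12, the histone-fold partner of Taf4, had its stronger summit past the far end of the gene, at 1423 bp downstream of its start and 151 bp from the start of CG18476, with a signal of 593 (rank 2560). Its weaker summit, with a signal of 249 (rank 7266), lay 86 bp upstream of Taf12 and 33 bp from the start of the haem oxygenase gene Ho. Of the 6 bound TFIID genes, Taf12 was the 1 whose strongest summit was away from its own start.

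Taf11 and Taf13, which encode a histone-fold pair, were both bound, at lower signals. Taf11 had signals of 359 (rank 4805) at 52 bp upstream and 199 (rank 9051) at 258 bp upstream. The stronger lay 55 bp from an annotated start of und, and the weaker 15 bp from a different start of und. Taf13 had the weakest strongest summit of all bound members, with a signal of 204 (rank 8806). It lay 129 bp upstream of Taf13 and 6 bp from the start of nesd, in the 5′ UTR of nesd, and reached the top list of replicate 1 alone, with ranks of 7369, 11455 and 9767.

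By the signal of the strongest summit, the complexes did not separate. The median was 444 for the 12 bound Mediator genes (225 to 2570) and 626 for the 6 bound TFIID genes (204 to 1672), and it was 540 for both together against 462 over all 5222 bound genes. Among the 1000 strongest optimal entries were summits of 4 Mediator genes and 1 TFIID gene, and the share of all bound genes there was not counted. The median rank of the strongest summit was 2937 over the 18 bound members, against 3539 over all bound genes. The median distance from the strongest summit to the own start was 194 bp for Mediator (12 to 1095) and 131 bp for TFIID (52 to 1423), and 136 bp for both together against 301 bp over all bound genes.

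Most summits lay upstream of an own start, and most of the strongest ones were also close to the start of another gene. The strongest summits of MED9 and Taf12 lay downstream, and those of MED4 and Taf4 had no other start within 500 bp. Of the 15 strongest summits within 500 bp of an own start, 10 at Mediator and 5 at TFIID genes, all 15 were upstream, against 82.1% of the 3126 such summits over all bound genes. Of all 27 member summits, 15 were intergenic, 8 were in a 5′ UTR, 3 in an intron, 1 in a 3′ UTR and 0 in coding sequence. The places of all optimal summits were not counted, so these numbers have no share beside them. Of the 18 bound members, 17 had an oppositely oriented neighbour whose start lay within 1 kb upstream. This was so for 2874 of all 5222 bound genes. The next shares are over all bound genes, and those with such a neighbour were not counted apart. In 15 of the 18 bound genes the strongest summit also had the start of another protein-coding gene within 500 bp, against 50.6% of all bound genes. In 10 of the 18 it was nearer to that other start than to the member's own, which was so for 38.4% of all bound genes. These 10 were 7 Mediator genes (MED7, MED8, MED15, MED25, MED30, MED31 and MED6) and 3 TFIID genes (Taf2, Taf12 and Taf13). The lists give positions only, and which of the neighbouring genes such a summit bears on was not tested.

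**Figure D2:**
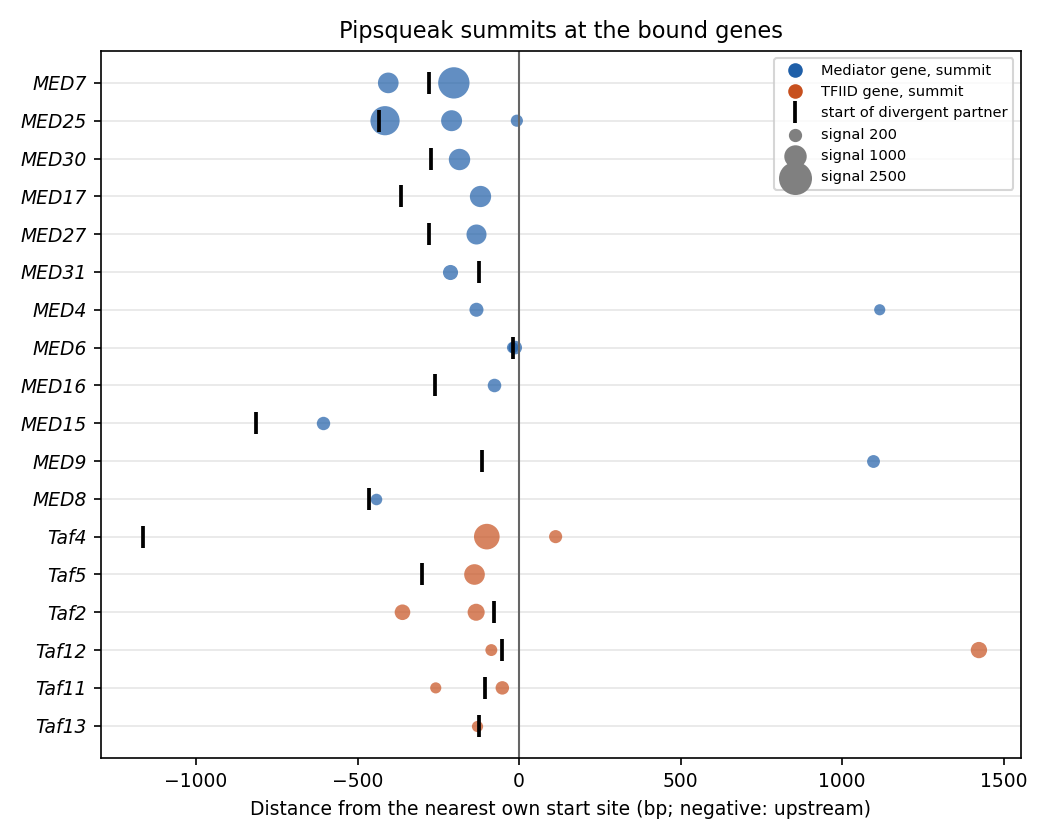
Distance in bp from the nearest own start to each of the 27 summits of the 18 bound members, with negative values upstream, larger points for stronger signals, and ticks for the start of the divergent partner. Most summits lie within 500 bp upstream of the start, and those of MED4, MED9 and Taf12 beyond 1000 bp downstream stand apart.

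The replicate entries that overlap the strongest summits lay close to them. They were picked by that overlap, and the optimal list was itself made from these replicates, so closeness and support are partly fixed in advance. For each strongest summit the overlapping entry of each replicate was located, and the SD of its distance to the start over the 3 replicates was at most 50 bp in 15 of the 18 genes, with a median of 21.2 bp. MED7 lay at −184 ± 17.2 bp, MED17 at −120 ± 21.7 bp and Taf4 at −82.0 ± 18.2 bp (SD, n = 3 each). The 3 genes with a larger spread were MED8 at −550 ± 229 bp, Taf2 at −156 ± 70.3 bp and Taf11 at −78.3 ± 78.4 bp. Of the 27 summits, 24 had an overlapping entry in the top list of every replicate, 15 of 17 for Mediator and 9 of 10 for TFIID. With an overlap of at least 50% of both entries required, 16 did, 9 for Mediator and 7 for TFIID. In the count of 24 the same replicate entry could serve several summits of a gene, as at MED7, Taf2, Taf4 and Taf11. The MED25 summit at −7 bp was counted through replicate entries with summits at −174, −415 and −435 bp. The count of 24 therefore does not show that each summit recurred separately, and the share over all optimal entries was not counted. Counted by gene, 40.0% of the members had a summit supported in every top list, against 31.0% of all protein-coding genes. With the overlap of 50% these shares were 30.0% and 26.4%.

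The ranks differed between replicates in one direction. Replicate 1 ranked the strongest summit higher than replicates 2 and 3 did at 17 of the 18 bound genes, all except MED25. Over 5099 bound genes this was so for 60.6%, for 67.9% of those with the strongest summit within 500 bp of an own start and for 68.4% of those with a divergent partner. The median ranks over the 18 genes were 1855, 3700 and 3457 in replicates 1, 2 and 3, against 2884, 3880 and 3655 over all bound genes. Whether depth or sample quality differs between the replicates cannot be read from lists without counts, and their part in this difference was not tested.

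**Figure D3:**
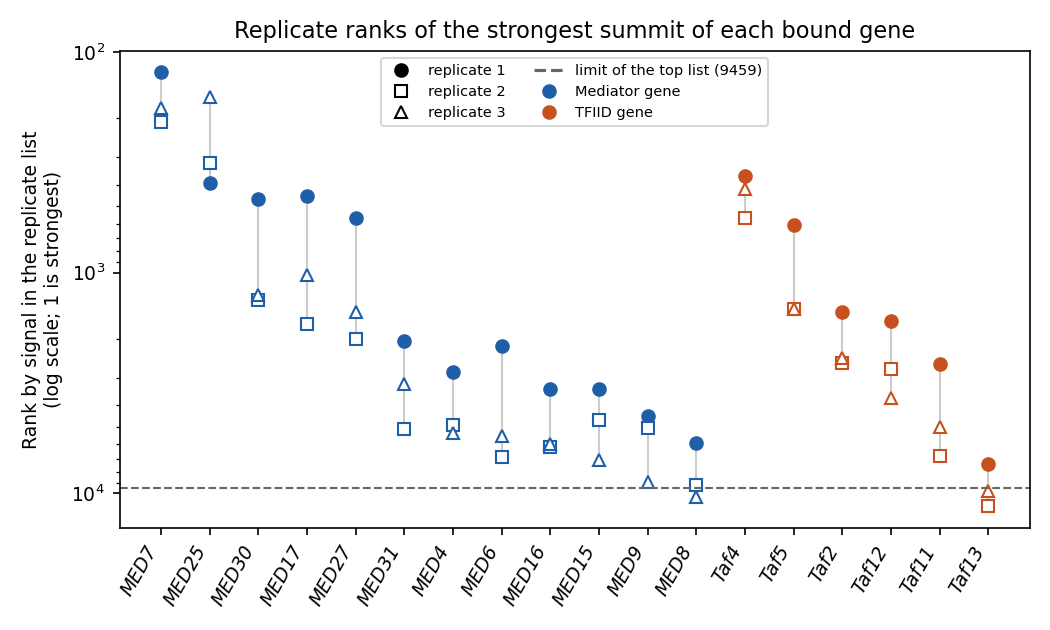
Rank of the entry overlapping the strongest summit of each of the 18 bound members in replicates 1, 2 and 3, on a log axis with rank 1 the strongest, and a line at the 9459 entries of a top list. Replicate 1 gives the best rank at every gene but MED25, and MED8 and Taf13 cross the line in at least 1 replicate.

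What most of these genes share, and the rule did not use, is a neighbour whose start lies close upstream on the opposite strand. Such a divergent protein-coding partner within 1 kb was present at 31 of the 40 genes (77.5%), 19 of 25 Mediator genes (76.0%) and 12 of 15 TFIID genes (80.0%). It was present at 36.2% of all protein-coding genes and at 34.8% of genes of like length. Taf10 and Taf10b, which encode alternative forms of one histone-fold subunit, are each other's partner, with starts 45 bp apart. The partner of MED20 is Trf, a TBP-related factor gene, at 47 bp, and that of Taf6 is ash1, a trithorax-group gene, at 333 bp.

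Members with a divergent partner were bound more often than those without, as was so over all protein-coding genes. The start of such a partner always lies in the window in which a summit counts for the gene. A higher share is thus partly fixed by the definitions. Of the 31 members with a divergent partner 17 were bound (54.8%), 11 of 19 for Mediator and 6 of 12 for TFIID, against 56.9% of all genes with such a partner. Of the 9 members without one, MED4 alone was bound (11.1%), against 26.3% of all genes without a partner. With pairs counted up to 500 bp in place of 1 kb, 15 of 26 divergent members (57.7%) and 3 of 14 others (21.4%) were bound, against 59.6% and 29.0% of all genes so arranged. When each member was set beside genes of both like length and like arrangement, the share bound among these was 46.1% for Mediator and 47.3% for TFIID, against 48.0% and 40.0% of the members themselves. The excess over genes of like length alone was therefore no longer seen, and the TFIID genes lay below it. For a summit within 500 bp of an own start, genes of like length and arrangement reached 37.7% for Mediator and 37.9% for TFIID, beside 40.0% of each complex.

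In the 17 bound pairs, the strongest summit lay between the paired starts of the member and its partner in 11 (64.7%), against 47.8% of the 2874 bound genes with a partner. The Taf4 summit, inside the gene at an internal start, is not among the 11. The distance between the starts went with the calls among the members. With starts at most 100 bp apart 3 of 10 members were bound (MED6, Taf2 and Taf12), against 55.3% of all genes so arranged. Between 100 and 500 bp 12 of 16 were bound, against 60.8% of all genes, and between 500 and 1000 bp 2 of 5 (MED15 and Taf4), against 48.4%. The 7 closely paired members without a summit were MED10, MED18, MED20, MED23, MED28, Taf10 and Taf10b, and the last 2 share the gap of 44 bp between their spans. The distance classes were chosen after the values were seen, and with 10 and 5 members in the outer classes the difference from all genes was not tested.

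**Figure D4:**
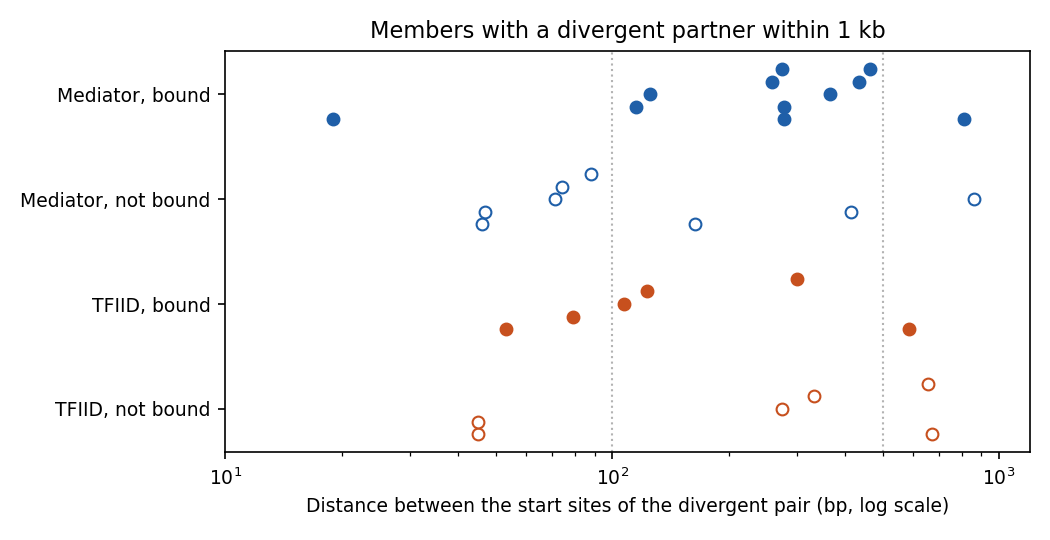
Distance in bp between the start of each of the 31 divergent members and the start of its partner, with bound and unbound members marked, Mediator and TFIID apart. Between 100 and 500 bp 12 of 16 members were bound, and at 100 bp or less 3 of 10.

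Members on the autosomal arms and on X differed in number bound. On 3R 7 of 10 were bound against 37.0% of all protein-coding genes there, on 2R 4 of 5 against 37.1%, on 2L 3 of 7 against 34.6% and on 3L 4 of 12 against 38.8%. None of the 4 members on X and neither of the 2 on chromosome 4 were bound, against 40.9% of all protein-coding genes on X and 20% of those on chromosome 4. The numbers per arm are small, and this difference was not tested.

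The 22 members without an optimal summit, 13 of Mediator and 9 of TFIID, were looked up in the pooled list of 30000 entries, which includes background regions. An entry with its summit in the span or within 1 kb was present at 11 of them, 6 of Mediator and 5 of TFIID, against 37.3% of all protein-coding genes that were not bound. For MED20 the signal of 190 (rank 9548) fell just short of the lowest optimal signal of 191. That summit lay 922 bp downstream of the MED20 start. MED10, MED19 and MED14 had pooled signals of 147, 146 and 122, with summits 19 bp upstream, 36 bp upstream and 34 bp downstream of their starts. MED28 and MED24 were weaker, at 99.5 and 77.1. Of these 11 genes, MED20 had an entry in the top lists of replicates 1 and 3, MED19 in that of replicate 1 and MED28 in that of replicate 3.

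Among the unbound TFIID genes, Taf7 had a pooled signal of 131 at 66 bp upstream of its start and Taf8 one of 109 at 890 bp upstream. Taf9, whose product pairs with that of Taf6, had 87.7 at 25 bp upstream. Taf10 and Taf10b shared 1 pooled entry with a signal of 52.2 (rank 28656), near the end of that list. No pooled entry was found at 7 Mediator genes (MED1, MED11, MED18, MED21, MED22, MED23 and MED26) or at 4 TFIID genes (Taf1, which encodes the largest subunit, Taf3, Taf6 and Taf12L). These lists contain only entries above a minimum, so weaker binding at these genes was not detectable.

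The GAGA repeat was rare at the summits of these genes. None of the 27 windows reaching 50 bp to each side of a summit held GAGAG on either strand. It was in the windows of 17.0% of all optimal summits and 16.7% of those within 500 bp of a protein-coding start. Few member windows were counted and some overlap, so a low share cannot be told from 0. In the top lists of replicates 1, 2 and 3 the motif was in 1 of 28, 0 of 25 and 2 of 26 member windows, against 15.4%, 17.7% and 18.0% of all entries. With 100 bp to each side it was in 4 of 27 windows (14.8%), against 31.6% of all summits. The longer GAGAGAG, which contains it, was also in 0 windows, against 4.31%. The motifs GGAAG and AGGGA, which hold the letters of GAGAG in another order and serve as a comparison of base composition, were in 2 (7.41%) and 1 (3.7%) of the windows, against 12.4% and 11.4% of all summits. The windows of the members were poorer in G and C than all windows, and the part of base composition in these shares was not tested. Several windows of 1 gene overlap, and 21 of the 27 summits are left with 1 entry per set of overlapping entries.

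TATCGATA was in 3 of the 27 windows (11.1%), those of MED7, MED8 and the weakest MED25 summit, against 1.14% of all optimal summits and 2.67% of those near a protein-coding start. The replicate top lists held it in 1 of 28, 3 of 25 and 2 of 26 member windows, against 1.45%, 0.983% and 1.27% of all entries. GGTCACACT, the core promoter sequence known as motif 1, was in none, against 0.486%. In the 250 bp upstream of the start, TATCGATA occurred at 5 of the 18 bound members (MED7, MED8, MED9, MED17 and MED25) and at 5 of the 22 unbound ones (MED18, MED26, MED28, Taf3 and Taf7), against 8.91% of all protein-coding genes. The element was thus more frequent at members than at all genes, with or without a summit. GAGAG in the same stretch occurred at 3 of 18 bound and 5 of 22 unbound members, against 32.5% of all genes. GGAAG occurred there at 1 of 18 and 4 of 22, against 29.3%, and AGGGA at 4 of 18 and 4 of 22, against 26.4%, so GGAAG was also less frequent at members than at all genes. GGTCACACT occurred at 0 of 18 bound and 2 of 22 unbound members (MED10 and MED11), against 3.69%. A match is a string of letters and not a measured site, and 24 of the 27 windows held none of GAGAG, TATCGATA and GGTCACACT.

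Other genes of the same machinery were looked up for context. Of the 4 kinase-module genes, skd and kto, which encode the fly counterparts of MED13 and MED12, were bound and Cdk8 and CycC were not. The gene skd held 14 summits, the strongest with a signal of 2427 (rank 191) at 12513 bp downstream of its start. The TATA-binding protein gene Tbp and Trf had no summit, and Trf2 had 6, the strongest with a signal of 1044. Of the testis-specific TAF homologues, can was bound and nht, mia and sa were not, and Taf12L, counted above among the TFIID genes by its symbol, was not bound either. General transcription factor genes were bound at 11 of 18, 9 of them within 500 bp of the start, and Ssl1, which encodes a TFIIH subunit, had the strongest summit with a signal of 3158 (rank 96), 171 bp upstream. RNA polymerase II subunit genes were bound at 6 of 12, all within 500 bp of the start. Their strongest summit was that of Polr2B, the second largest subunit, with a signal of 1279 (rank 713) at 109 bp upstream. These shares stand beside 18 of 40 for the Mediator and TFIID genes and 37.4% for all protein-coding genes. For these other genes, skd and Trf2 among them, no share of genes of like length is given, and a longer gene has more room for summits.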

How the data were processed

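Pipsqueak binding was read from peak lists on dm6. The replicate and pooled lists are inputs of the irreproducible discovery rate step and the optimal list came out of it, per the notes deposited beside the lists. The authors' signal value, a score whose scale is not stated, was used only within its own list, to rank and describe entries. The other deposited value used is the summit offset in bp from the entry's start. For the aligner, the peak caller and the reproducibility threshold no name or value is given in the sources used here. The lists on dm3 were not used and the control was not analysed here. Pooled and replicate lists hold 30000 entries, and replicates were compared by their 9459 strongest (top list). An overlap of 1 bp or more counted as shared.

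Gene models were those of Ensembl release 115 and the genome release 6 of NCBI RefSeq. Genes of like length were the 200 protein-coding genes nearest in span, members left out, averaged over members. A divergent partner is a protein-coding gene on the other strand whose start lies upstream within 1 kb. The comparison by arrangement and its distance classes were added after the data were seen. Motifs were searched as exact letters on both strands. Full values are given for the 6 genes of each complex with the strongest summit and then for the other bound members, and for unbound members the strongest pooled entry is given. RNA polymerase II subunits were matched through RefSeq synonyms. The members and lists were chosen with earlier results of these data known, so no test was made, and errors are SDs over replicates. The counting was checked on planted summits. Software was matplotlib 3.10.9, scipy 1.17.1, pandas 2.3.3 and numpy 2.4.6 in Python 3.11.15. Other windows, thresholds and replicate requirements were tried.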

Additional observations from a re-analysis of the deposited data

How the results depend on the processing

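Of 88 alternative values for 16 results, 70 stayed within the tolerance, which is a factor of 1.5 for a count and 1 SD over replicates for other values, and 18 did not. Within it, the bound members numbered 24 with a flank of 2 kb (43.9% of all genes), and 12 both with the stronger 50% of optimal entries (23.3%) and with reciprocal overlap of 50% in every replicate (26.4%). With no flank around the gene span 3 members were bound, 2 of Mediator and 1 of TFIID, and the median TFIID signal became 1672, that of Taf4 alone. These 3 are 7.5% of members against 17.0% of all genes, which turns the direction of the difference. With the stronger 25% of optimal entries 8 members were bound, 5 and 3, against 13.5% of all genes, and with the stronger 50% TFIID had 3 genes with a summit near the start and 11 divergent members were bound. Replicate top lists of 50% of the size gave means of 30.7% for Mediator and 28.9% for TFIID, and lists of 150% gave 61.3% and 53.3%. Among genes of like length and arrangement 46.1% were bound for Mediator and 47.3% for TFIID. The nearest in place of the strongest summit gave a median distance of 158 bp for Mediator. With 100 bp to each side 14.8% of member windows held GAGAG. With pairs of at most 500 bp 3 of the 14 members without a partner were bound. Requiring support in both other replicates only, each replicate left out in turn, gave 16 to 17 bound members, 11 to 12 of Mediator (44.0% to 48.0%) and 5 of TFIID (33.3%), against 32.4% to 33.0% of all genes. No paired analysis was possible because there is 1 group. Depth is unknown, so what it limits could not be measured.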
